A study of Mus musculus with 2 samples.

Results

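Neuropeptide Y and several other peptides that raise or lower food intake act on the paraventricular hypothalamus (PVH) through G protein-coupled receptors. The genes described here are 10 such receptors, namely Npy1r, Npy2r, Npy5r, Hcrtr2, Npsr1, Qrfpr, Brs3, Nmur2, Glp1r and Galr1, chosen by name, out of 31053 gene rows. All 10 were measured and all had at least 20 unique molecular identifiers (UMIs, each a counted RNA molecule) in neurons. The data are single-nucleus RNA counts from the PVH of 17 mice aged 4 weeks, in 1 droplet library to which hashtags, barcoded labels of the nuclei, had been added. The question of the study was how a change in Otp, a homeodomain transcription factor needed to build PVH neurons, alters these neurons.

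Every mouse, controls included, carried Sim1-Cre and the nuclear-envelope reporter Sun1-GFP, and GFP-positive nuclei were sorted. Sim1 drives the Cre, so the sort was aimed at cells of the Sim1 lineage. Of the mice, 4 also carried 1 floxed and 1 wild-type copy of Otp (Otpfl/+), 6 had 1 copy of the Q153R allele of Otp beside a wild-type copy, and 7 had no Otp change. The 3 hashtags are named KD, Q153R and Ctrl. The tag KD was matched to the Otpfl/+ genotype by elimination alone, and the nuclei are therefore called nuclei labelled KD, Q153R and Ctrl. Nuclei of all mice of a tag are pooled, so each tag is 1 sample without replicates. No p-value was computed, and every 95% interval given covers counting error only. UMIs of 1 nucleus are not independent, so an interval is too narrow where a few nuclei hold many UMIs.

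Of 6173 barcodes, 6157 held at least 500 genes and under 5% mitochondrial UMIs, and 4904 of these carried exactly 1 tag. By neuronal against glial marker UMIs, 4756 of these nuclei were neurons, with a median of 5320 UMIs, and 148 were glial, with a median of 2162.5 UMIs. Neurons outside the GABA gate defined below numbered 1199 in KD, 1500 in Q153R and 1693 in Ctrl, with median library sizes of 5981, 4698 and 5389 UMIs. Otp itself stood at 81.7 UMIs per 1000000 (CPM) under the label KD and at 113 CPM under Q153R, against 50.8 CPM under Ctrl. Otp was thus not lower under the label KD. The part of Otp between the loxP sites is not given in the sources used here, so a level over the whole gene does not check that label. Sim1 was at 454 CPM over all neurons and 79.2 CPM in glial nuclei. It was at 21.4 CPM in the 511 nuclei of a GABAergic expression cluster described further on. Whether all sorted nuclei are of the Sim1 lineage was not tested.

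As background, Npy1r and Npy5r encode the Y1 and Y5 receptors through which neuropeptide Y stimulates feeding, and Npy2r encodes the Y2 receptor, which often sits on axon terminals and also binds the gut peptide PYY. These receptors couple to inhibitory G proteins, as does the galanin receptor encoded by Galr1. Hcrtr2 (orexin receptor 2) and Npsr1 (neuropeptide S receptor) are known for arousal, Qrfpr binds the RFamide peptide QRFP, Nmur2 binds neuromedins U and S and curbs food intake, Brs3 is an orphan receptor of the bombesin family whose loss makes mice obese, and Glp1r binds the satiety peptide GLP-1.

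On GRCm38 (GENCODE vM21), Npy1r lies at chr8:66697192-66706792 on the plus strand and Npy5r at chr8:66679965-66688128 on the minus strand. The pair are divergent neighbours with 9064 bases between their starts. Npy2r is at chr3:82538383-82548084 (minus), Qrfpr at chr3:36179424-36222313 (minus), Hcrtr2 at chr9:76225880-76323856 (minus) and Npsr1 at chr9:24097996-24316398 (plus). Brs3 is at chrX:57043074-57048758 (plus), Nmur2 at chr11:56024987-56041010 (minus) and Glp1r at chr17:30901817-30940791 (plus). These genes are protein-coding, as is Galr1. Hcrtr2, Npsr1, Qrfpr, Nmur2 and Glp1r each overlap an annotated gene on the opposite strand, and whether strand was used in counting is not given in the sources used here. UMI totals also depend on gene length and intron content, so levels were compared between groups of nuclei and not between receptors.

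RefSeq promoter windows (GRCm38.p6, 250 bases before to 50 after the start) were matched for 9 of the 10 receptors. Shown are Npy1r and Npy5r, the neighbouring pair that was found together in nuclei, and Brs3, Nmur2 and Npsr1, whose levels in nuclei labelled Q153R stood apart from Ctrl. Capitals mark TAATTA, a core read by many homeodomain proteins, the class to which Otp belongs. Each sequence runs 5′ to 3′ on the strand of its gene. The windows are chr8:66697172-66697471 (Npy1r), chr8:66688045-66688344 (Npy5r), chrX:57042824-57043123 (Brs3), chr11:56040938-56041237 (Nmur2) and chr9:24097768-24098067 (Npsr1).
Npy1r: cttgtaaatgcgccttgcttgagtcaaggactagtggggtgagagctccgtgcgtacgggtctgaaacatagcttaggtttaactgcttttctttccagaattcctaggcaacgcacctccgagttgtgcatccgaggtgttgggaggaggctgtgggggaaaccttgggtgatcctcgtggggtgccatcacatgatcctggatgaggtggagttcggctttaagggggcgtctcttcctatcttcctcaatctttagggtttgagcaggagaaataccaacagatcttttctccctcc
Npy5r: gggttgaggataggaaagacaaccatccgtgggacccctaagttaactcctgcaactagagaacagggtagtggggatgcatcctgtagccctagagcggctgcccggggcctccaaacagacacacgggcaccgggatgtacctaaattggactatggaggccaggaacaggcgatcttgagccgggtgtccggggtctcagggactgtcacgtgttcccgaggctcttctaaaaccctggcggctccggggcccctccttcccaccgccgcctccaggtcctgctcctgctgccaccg
Brs3: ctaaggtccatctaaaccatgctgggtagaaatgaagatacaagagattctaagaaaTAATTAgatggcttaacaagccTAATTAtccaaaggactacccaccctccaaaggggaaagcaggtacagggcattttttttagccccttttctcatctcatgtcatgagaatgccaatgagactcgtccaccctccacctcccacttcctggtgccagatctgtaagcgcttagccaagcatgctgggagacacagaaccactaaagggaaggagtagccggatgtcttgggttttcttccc
Nmur2: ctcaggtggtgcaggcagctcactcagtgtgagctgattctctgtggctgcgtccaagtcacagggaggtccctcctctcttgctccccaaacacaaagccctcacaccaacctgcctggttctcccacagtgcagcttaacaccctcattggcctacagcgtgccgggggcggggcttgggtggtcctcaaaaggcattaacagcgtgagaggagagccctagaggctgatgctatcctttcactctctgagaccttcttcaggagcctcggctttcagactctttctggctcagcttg
Npsr1: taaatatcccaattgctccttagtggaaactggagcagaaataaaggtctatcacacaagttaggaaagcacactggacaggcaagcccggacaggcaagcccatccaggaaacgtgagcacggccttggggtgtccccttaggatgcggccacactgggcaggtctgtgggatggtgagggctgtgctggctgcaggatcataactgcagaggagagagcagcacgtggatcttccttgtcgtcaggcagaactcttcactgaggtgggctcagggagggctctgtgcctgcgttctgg

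Of the 9 windows, only that of Brs3 held TAATTA, at 2 places whose first bases lie at -193 and -171 from the start. TAATTA was present in 5.29% of 32544 promoter windows of the same length and reads the same on both strands. Also searched on both strands were TACGTG, a core of factors such as the Sim1 and Arnt2 pair, found in 3.24% of all windows, and the cAMP response element TGACGTCA, found in 1.80%. Neither was in any of the 9 windows. A match is a description of letters and not of a bound site.

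The receptors were sparse, and each marked a minority of neurons. Hcrtr2 was found in 859 neurons (18.1%), Galr1 in 371 (7.80%), Npy1r in 331 (6.96%), Npsr1 in 280 (5.89%) and Qrfpr in 255 (5.36%). Npy2r was found in 157 neurons, Npy5r and Nmur2 in 154 each, Brs3 in 51 and Glp1r in 43. With each nucleus thinned to 2555 UMIs, which left out 475 shallower neurons, the shares were 11.9% for Hcrtr2, 4.47% for Galr1, 3.42% for Npy1r and between 0.395% and 3.87% for the others. At least 1 of the 10 was seen in 2031 neurons (42.7%), and 524 neurons held 2 or more.

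Glial nuclei served as the background for free RNA. Npy1r, Npy5r, Npsr1, Qrfpr, Brs3 and Glp1r had 0 UMIs in the 148 glial nuclei, which allows a level of up to 7.43 CPM in each (3 UMIs over the group, the limit used for every count of 0). In neurons Npy5r was at 6.61 CPM, Brs3 at 2.23 CPM and Glp1r at 1.64 CPM. These levels are below that limit, so 0 glial UMIs does not set these 3 genes above free RNA. Hcrtr2 had 7 UMIs in 4 glial nuclei and Npy2r had 1 UMI. Nmur2 had 6 UMIs and Galr1 8 UMIs, each in 2 glial nuclei, so their glial levels (14.9 and 19.8 CPM) rest on single nuclei with up to 4 and 7 UMIs. In neurons Nmur2 was at 6.65 CPM and Galr1 at 19.2 CPM, neither above its glial level. Thinned to the same depth, which left 61 glial nuclei, glial shares were 3.48% for Hcrtr2, 2.38% for Galr1 and 1.64% for Nmur2. The neuronal share of Nmur2, 1.51%, was not above the glial share, but that share rests on at most 2 nuclei. Without thinning, the Nmur2 shares were 3.24% in neurons and 1.35% (0.164 to 4.80) in glial nuclei.

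Npsr1 and Hcrtr2 often had several UMIs in 1 nucleus. Of the 280 neurons with Npsr1, 43 held at least 5 UMIs and 1 held 18, while 119 (42.5%) held a single UMI. Hcrtr2 had 65 neurons with at least 5 UMIs among 859. A single UMI was all that was seen in 95.3% of Glp1r-positive, 86.3% of Brs3-positive and 83.8% of Npy5r-positive neurons.

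Neurons were grouped by gates on UMIs of Qrfpr and Sim2 (55 nuclei), Bnc2 (38), Crh (95), Trh (177), Sst (234), Oxt (141), Avp (209) or the GABAergic genes Gad1, Gad2 and Slc32a1 (320). Neurons in no gate numbered 3420, and 67 neurons in more than 1 gate entered none. Sim1 was at 118 CPM in the GABA gate. Of the 80 combinations of receptor and gate, 15 reached 1.5 times the level of all other neurons, with 0 to 4 receptors per gate, where 7.54% to 16.4% of all genes did. The 15 include Qrfpr in the gate that its own UMIs help to define.

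Among the gates, Npy1r was highest in somatostatin neurons, while ungated neurons held 310 of its 434 UMIs in neurons. Its level in the Sst gate was 53.3 CPM (40.8 to 68.5), from 61 UMIs in 34 of 234 nuclei, against 14.2 CPM in other neurons, a ratio of 3.75 (2.81 to 4.93). The same ratio was 2.55 in nuclei labelled KD, 3.95 in Q153R and 4.07 in Ctrl, each with an interval above 1. In the order of levels, only the step below Sst, to the GABA gate at 19.4 CPM, had separate intervals. The Oxt and Avp gates stood at the other end, with 1 UMI of Npy1r in 141 Oxt nuclei (0.984 CPM) and 1 UMI in 209 Avp nuclei (0.840 CPM). In the Sst gate 3 of the 10 receptors were at 1.5 times or more and 5 were lower by that factor, where 11.0% and 24.0% of all genes tested were. Those 3 include Glp1r at a ratio of 1.64 (0.325 to 5.12), from 3 UMIs.

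The other Y receptors did not share this pattern. Npy2r had 0 UMIs in the Sst gate, which allows up to 2.62 CPM, against 7.62 CPM in other neurons, and its highest level was in the Qrfpr/Sim2 gate at 15.7 CPM (6.33 to 32.4). Of the 7 Npy2r UMIs in that gate, 6 came from nuclei labelled KD and 1 from Q153R, against 0 from 23 Ctrl nuclei. Npy5r was at 7.86 CPM in the Sst gate, against 6.55 CPM in other neurons, and highest in the Bnc2 gate at 18.9 CPM (6.95 to 41.2), from 6 UMIs. Neither gene had 2 neighbouring gates with separate intervals. Both were near 1 CPM in the Oxt and Avp gates, from 1 UMI each.

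Galr1, at chr18:82392380-82406777 on the minus strand, also led in somatostatin neurons and was high in Crh neurons. It reached 51.5 CPM (39.2 to 66.5) in the Sst gate, from 59 UMIs in 43 nuclei, against 17.8 CPM in other neurons, a ratio of 2.90 (2.17 to 3.80). That ratio was 4.76 in nuclei labelled KD, 2.41 in Q153R and 2.46 in Ctrl. In the Crh gate Galr1 was at 44.9 CPM (27.5 to 69.4), 2.39 times other neurons (1.45 to 3.74). It was the only receptor of the 10 past 1.5 times there, where 13.5% of all genes were, while 8 were lower by 1.5 times or more, as were 46.6% of all genes. Galr1 was at 24.3 CPM in the Avp gate and 2.95 CPM in the Oxt gate, so the Oxt and Avp gates, both low for Npy1r, had separate intervals for Galr1.

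Hcrtr2 was broad except in the Oxt and Avp gates. It ranged between 28.4 and 86.5 CPM in the Qrfpr/Sim2, Bnc2, Crh, Trh, Sst and GABA gates, with the top in the Sst gate. In the Oxt gate it was at 17.7 CPM (10.5 to 28.0). In the Avp gate it had 2 UMIs in 209 nuclei, 1.68 CPM (0.203 to 6.07), against 67.6 CPM in other neurons. Those 2 UMIs came from 1 nucleus each labelled KD and Q153R, and none from Ctrl.

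Npsr1, which had among the lowest levels in Sst and Crh neurons, was high in Oxt neurons. It was at 57.1 CPM (43.3 to 73.8) in the Oxt gate, from 58 UMIs in 21 of 141 nuclei, against 26.8 CPM in other neurons, a ratio of 2.13 (1.60 to 2.79). By label the ratio to other neurons was 2.24 in KD, 1.20 (0.614 to 2.13) in Q153R and 3.13 in Ctrl. Expression clusters, which were computed without the 10 receptors and are described further on, divided this gate after the values had been seen. The 45 Oxt nuclei in the cluster led by Esr2 and Foxp2 held 45 of the 58 Npsr1 UMIs, at 139 CPM (101 to 186) in 17 nuclei. The 89 Oxt nuclei in the cluster led by Oxt held 2 UMIs, at 3.14 CPM (0.380 to 11.3), while their median library sizes were alike at 6661 and 6700 UMIs and their Oxt levels were 8823 and 9739 CPM. The difference was present under each label, at 14 UMIs against 1 in KD, 12 against 0 in Q153R and 19 against 1 in Ctrl.

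Npsr1 had 2 UMIs in the Sst gate and 0 in the Crh gate, which allows up to 6.74 CPM. Its level in the Bnc2 gate, 78.9 CPM, rested on 25 UMIs in 4 nuclei, 23 of those UMIs in 3 nuclei labelled Q153R. Without the nucleus with the most UMIs, the Bnc2 ratio fell to 1.79 (0.995 to 2.97), against 2.89 with it. In the Oxt gate 2 of the 10 receptors, Npsr1 and Glp1r, were at 1.5 times or more and 8 were lower by that factor, where 16.4% and 22.3% of all genes were. The Glp1r ratio there, 1.85, rests on 3 UMIs in 3 nuclei, and its interval (0.367 to 5.80) includes 1.

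Glp1r, seen in few neurons, was highest in vasopressin neurons. It had 11 UMIs in 10 of 209 nuclei of the Avp gate, 9.24 CPM (4.61 to 16.5), against 1.30 CPM in other neurons, a ratio of 7.12 (3.25 to 14.4). The Avp gate gave Glp1r 3 UMIs in nuclei labelled KD, 4 in Q153R and 4 in Ctrl. Conversely, neurons with a Glp1r UMI had Avp at 3126 CPM, against 622 CPM in neurons without one. Glp1r was the only receptor at 1.5 times or more in the Avp gate, where 14.1% of all genes were, and 8 receptors were lower by that factor, where 26.3% of all genes were.

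Qrfpr helps to define its own gate, so its 445 CPM there is no result. Sim2 alone marked 3 nuclei, too few for a level. Outside that gate Qrfpr was highest in the Trh gate at 22.2 CPM (14.5 to 32.6), and 0 UMIs were found in 209 Avp nuclei. Nmur2 was highest in the Qrfpr/Sim2 gate at 13.5 CPM (4.95 to 29.4), from 6 UMIs in 6 nuclei, and its neighbours in the order had overlapping intervals. In that gate 3 receptors were at 1.5 times or more, Qrfpr included, where 15.8% of all genes were, and 3 were lower by that factor, where 30.4% of all genes were. Brs3 had 4 UMIs in the Bnc2 gate (12.6 CPM, 3.44 to 32.3), 7 in the GABA gate, 1 in the Qrfpr/Sim2 gate and 0 in the Crh, Trh, Sst, Oxt and Avp gates. The Bnc2 gate had 4 receptors at 1.5 times or more and 3 lower by that factor, where 16.3% and 37.1% of all genes were. Those 4 include Glp1r at a ratio of 3.97 (0.466 to 15.2), from 2 UMIs. In the Trh gate 0 receptors were higher and 6 lower by that factor, where 10.2% and 17.7% of all genes were. In the GABA gate 1 was higher and 3 were lower, where 7.54% and 14.8% of all genes were.

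**Figure D1:**
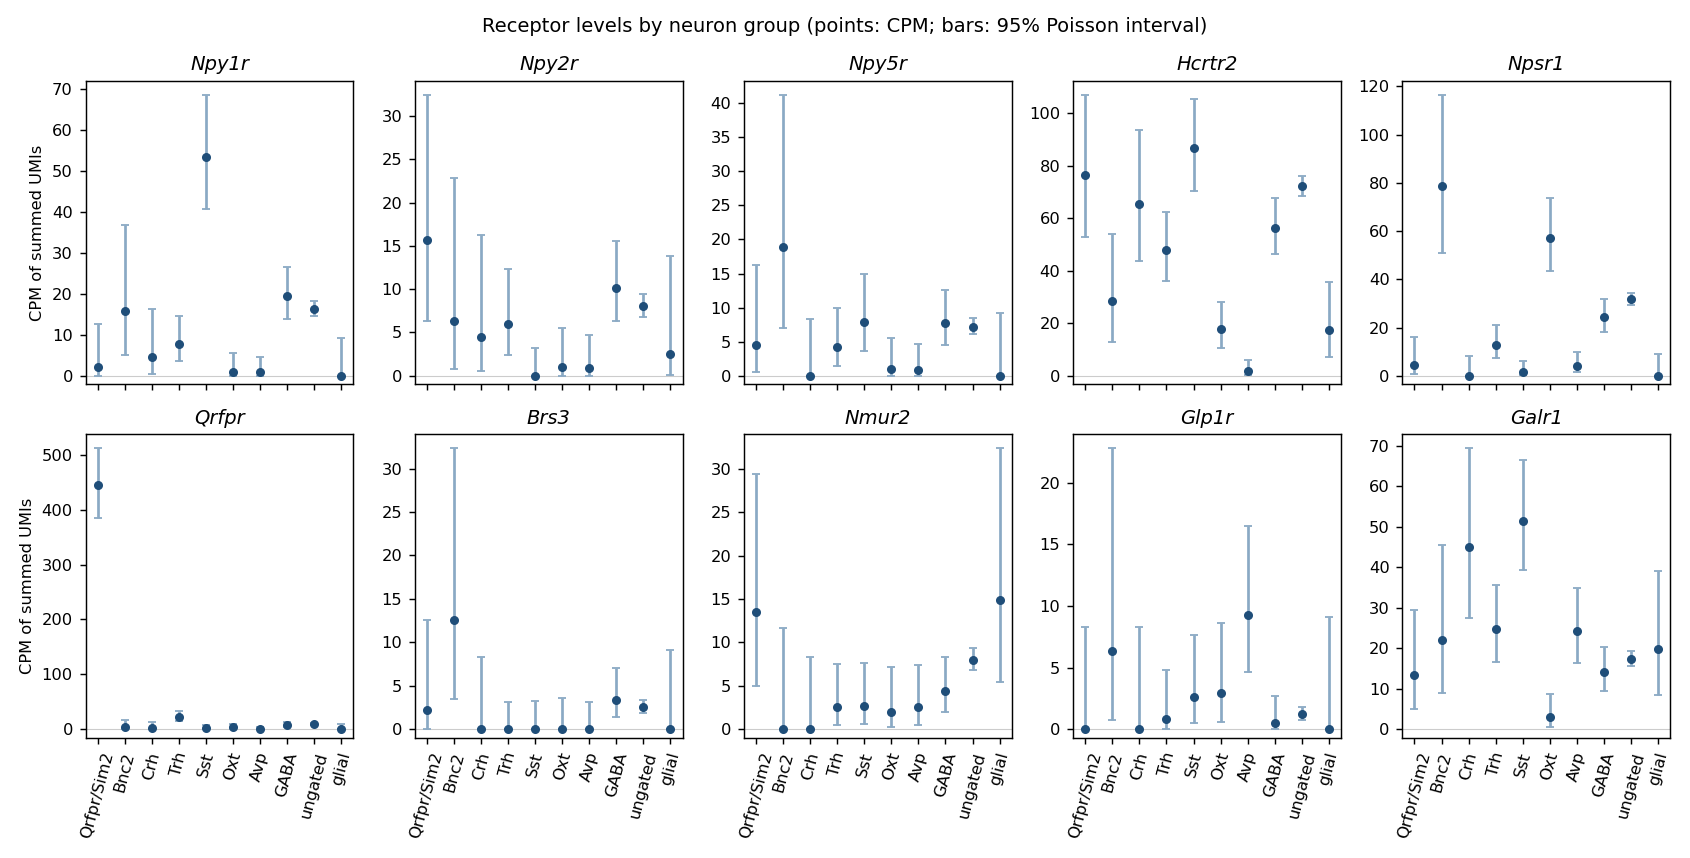
Levels of the 10 receptor genes in 8 gates, ungated neurons and glial nuclei, in CPM of summed UMIs (vertical axes differ between panels) with 95% Poisson intervals. Npy1r and Galr1 stand highest in the Sst gate at 53.3 and 51.5 CPM, Glp1r in the Avp gate at 9.24 CPM, and Hcrtr2 is at 1.68 CPM in the Avp gate.

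Because 3420 neurons passed no gate, the nuclei were also divided into 19 expression clusters computed without the 10 receptors and named here by leading genes. Qrfpr, described here without its gate, had 260 of its UMIs (55.0% of those in all single-tag nuclei) in the cluster led by Sim2 and Crhr2, at 108 CPM (95.4 to 122), against 8.39 CPM in other nuclei. A second group, led by L3mbtl4 and Arhgap28, had Qrfpr at 39.7 CPM. The same L3mbtl4 cluster was the highest for Npy1r, at 52.1 CPM (40.0 to 66.6) in 46 of 210 nuclei, and for Brs3, at 9.92 CPM (5.12 to 17.3), and had 0 UMIs of Galr1. Of its nuclei 89.5% were in no gate, so this Npy1r group was not visible among the gates.

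Npy2r had its top in the cluster led by Reln and Nkain2, at 33.5 CPM (24.4 to 45.0), against 5.93 CPM in other nuclei, a ratio of 5.66 (3.95 to 7.95). That cluster had 2 UMIs of Npy1r and 0 of Npy5r. The Reln cluster held 21.9% of the Npy2r UMIs, and the Sim2 and Crhr2 cluster, at 16.2 CPM, held 19.4%. Npy5r was at 12.7 CPM in the cluster led by Pmch and Adamts19 and 12.4 CPM in the cluster led by Col15a1. The Col15a1 cluster also had Npy1r at 32.0 CPM, 2.23 times its level in other nuclei.

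Hcrtr2 was at 160 CPM (146 to 174) in the cluster led by Sv2c, which also has Crh and the angiotensin receptor gene Agtr1a among its leading genes, and at 125 CPM in the cluster led by Dqx1 and Frem1. The Sv2c cluster had 2 UMIs of Npsr1 in 745 nuclei. Npsr1 was at 84.2 CPM in the cluster led by Esr2 and Foxp2 and at 65.0 CPM in the cluster led by Ebf2 and Bnc2. The astrocyte cluster, led by Slc1a3 and Apoe, had 19 Npsr1 UMIs in 4 nuclei, none of them nuclei called glial by markers.

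Nmur2 was 3.12 times (1.71 to 5.30) as high in the cluster led by Ucn3 as in other nuclei, and was at 19.1 CPM (14.0 to 25.5) in the Sim2 and Crhr2 cluster and at 12.9 CPM in the Ebf2 and Bnc2 cluster. Galr1 was at 56.1 CPM in the Sst cluster, 38.5 CPM in the Sv2c cluster and 37.7 CPM in the Ebf2 and Bnc2 cluster. Glp1r was at 9.67 CPM in the Avp cluster and, from 6 and 7 UMIs, at 4.96 CPM in the L3mbtl4 cluster and 4.01 CPM in the Esr2 cluster.

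**Figure D2:**
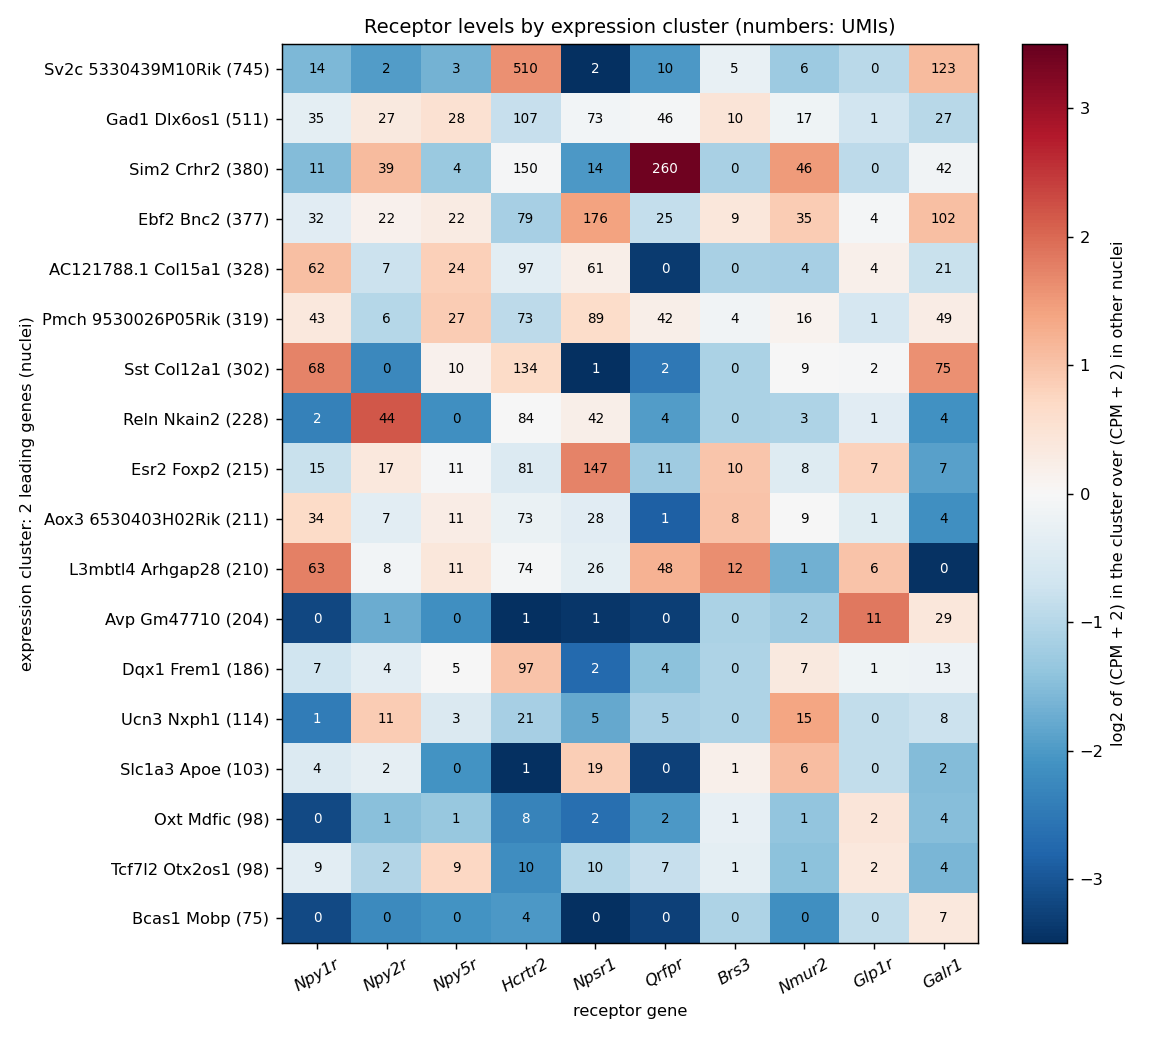
Receptor genes (columns) in the expression clusters (rows, by their leading genes, with the number of nuclei), coloured by the log2 ratio of (CPM + 2) in the cluster to (CPM + 2) in other nuclei, with UMIs printed in each cell. Qrfpr has 260 UMIs in the Sim2 cluster, Npy2r has 44 in the Reln cluster and 39 in the Sim2 cluster, and Galr1 has 0 in the L3mbtl4 cluster.

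The labels were compared over neurons outside the GABA gate, and a receptor counts as past the fold when it is higher or lower by 1.5 times or more. Relative to Ctrl, 1 of the 10 receptors was higher and 0 lower in nuclei labelled KD, where 3.99% of 15231 genes were higher and 4.27% lower. In Q153R 1 was higher and 2 were lower, where 3.37% of 15162 genes were higher and 4.74% lower. Nuclei in the GABAergic expression cluster made up 5.09% of these neurons in KD and 2.67% in Q153R, against 10.3% in Ctrl, and nuclei with Xist and no Y-linked UMIs made up 80.4%, 47.3% and 67.2%. Summed glial markers (28 genes) were at 203 CPM in KD and 190 CPM in Q153R, against 197 CPM in Ctrl, and summed GABAergic markers at 32.5 CPM in KD and 29.5 CPM in Q153R, against 45.6 CPM in Ctrl. The part of these in the results was not tested beyond ratios within expression clusters and within Xist nuclei. These are given beside the receptor ratios to Ctrl that pass the fold. Fewer cells of a type and less RNA per cell cannot be told apart in the summed counts.

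Npsr1 was higher in Q153R. Its level was 28.9 CPM (25.2 to 32.9) in KD and 36.8 CPM (32.6 to 41.4) in Q153R, against 21.6 CPM (18.8 to 24.7) in Ctrl. The ratio to Ctrl was 1.34 (1.10 to 1.62) in KD and 1.70 (1.42 to 2.04) in Q153R. Within clusters these ratios were 1.28 and 1.63, and in Xist nuclei 1.53 and 1.71. The share of nuclei with an Npsr1 UMI at equal depth differed less, at 3.83% in KD and 4.33% in Q153R, against 3.44% in Ctrl.

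Nmur2 and Brs3 were lower in Q153R. Nmur2 was at 7.03 CPM (5.28 to 9.17) in KD and 4.61 CPM (3.21 to 6.42) in Q153R, against 8.30 CPM (6.59 to 10.3) in Ctrl. Its Q153R to Ctrl ratio was 0.556 (0.363 to 0.836), or 0.547 within clusters and 0.543 in Xist nuclei. Gm12239, annotated on the opposite strand of Nmur2, had a Q153R to Ctrl ratio of 1.04 (0.922 to 1.17). Brs3 had 16 UMIs in KD and 8 in Q153R, against 30 in Ctrl, and its Q153R to Ctrl ratio was 0.343 (0.136 to 0.766), or 0.343 within clusters. Brs3 is X-linked, and in Xist nuclei alone its ratio was 0.371 with an interval of 0.0921 to 1.11.

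Glp1r was higher in nuclei labelled KD, from few UMIs. It had 24 UMIs in 23 nuclei in KD and 7 UMIs in 6 nuclei in Q153R, against 13 UMIs in 13 nuclei in Ctrl. The KD to Ctrl ratio was 2.34 (1.15 to 5.01), or 2.26 within clusters and 3.42 in Xist nuclei. In the Avp expression cluster, where Glp1r is highest, it had 4 UMIs in KD and 3 in Q153R, against 4 in Ctrl. Npy1r measured 12.2 CPM in KD and 17.4 CPM in Q153R, against 16.9 CPM in Ctrl, a KD to Ctrl ratio of 0.723 (0.555 to 0.937) that did not pass the fold.

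Galr1 was at 15.7 CPM (13.1 to 18.8) in KD and 25.3 CPM (21.9 to 29.2) in Q153R, against 18.0 CPM (15.5 to 20.9) in Ctrl. Its Q153R to Ctrl ratio of 1.40 (1.14 to 1.73) did not pass the fold, and its Q153R to KD ratio of 1.61 (1.27 to 2.04) did. Over the alternative settings described further on, that Q153R to KD ratio ran from 1.34 to 1.64, so it did not pass the fold in all of them. Between Q153R and KD 1 receptor was higher, where 3.94% of genes were, and 3 were lower, where 4.85% of genes were. The lower ones were Glp1r at 0.296 (0.108 to 0.707), Brs3 at 0.507 and Nmur2 at 0.657, and the intervals of Brs3 and Nmur2 include 1. The Glp1r ratio ran from 0.155 to 0.378 over the alternative settings.

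The most abundant receptor, Hcrtr2, was nearly equal under the labels, at 64.1 CPM (58.6 to 70.1) in KD and 65.8 CPM (60.1 to 71.8) in Q153R, against 66.1 CPM (61.1 to 71.4) in Ctrl. Its ratio to Ctrl was 0.970 (0.861 to 1.09) in KD and 0.995 (0.884 to 1.12) in Q153R. Npy2r and Npy5r had ratios to Ctrl between 0.895 and 1.22 with intervals that include 1. Qrfpr measured 20.2 CPM in KD and 13.7 CPM in Q153R, against 18.3 CPM in Ctrl. Its Q153R to Ctrl ratio was 0.748 (0.581 to 0.957) over all these neurons and 0.905 (0.705 to 1.16) within clusters.

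**Figure D3:**
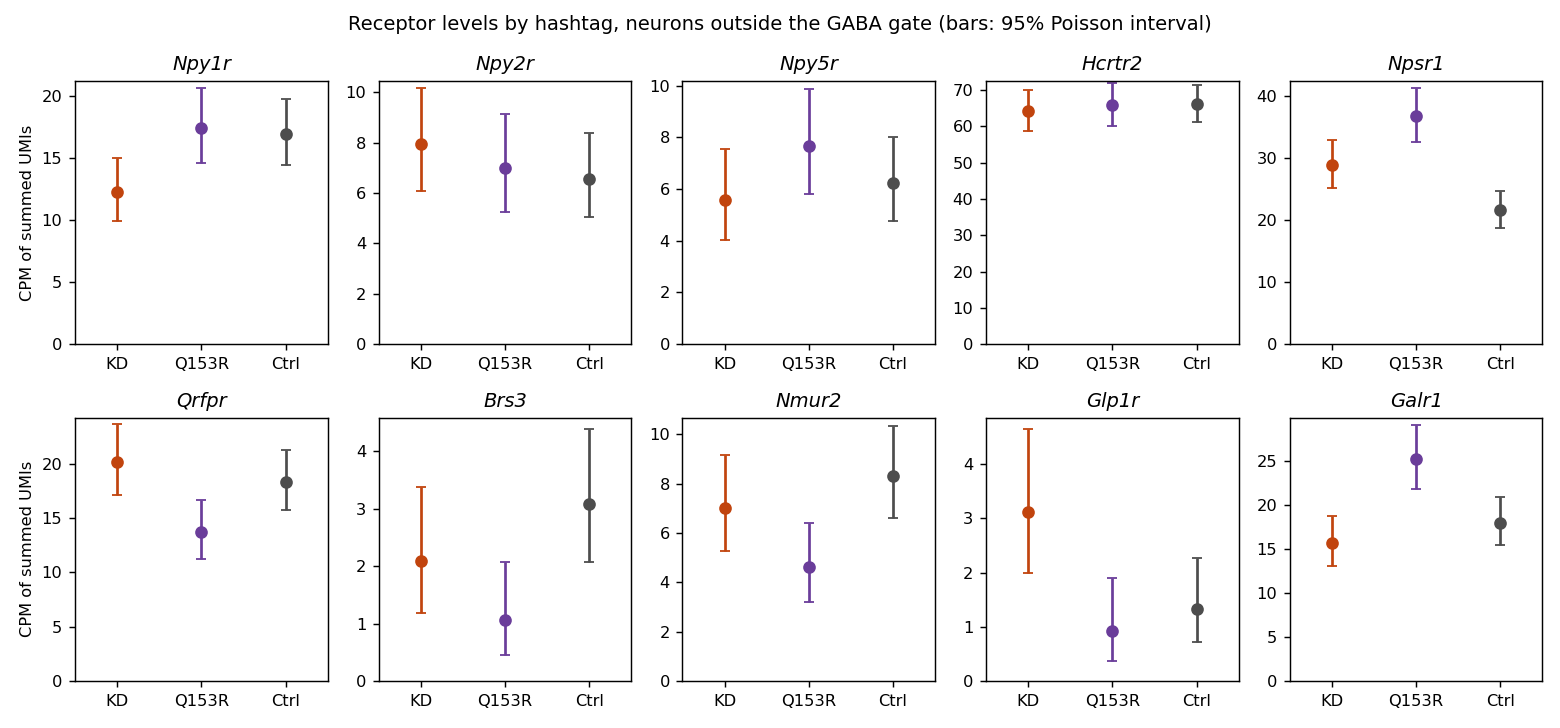
Levels of the 10 receptors in neurons outside the GABA gate by hashtag, in CPM of summed UMIs with 95% Poisson intervals (vertical axes differ). Npsr1 is at 28.9, 36.8 and 21.6 CPM in KD, Q153R and Ctrl, Brs3 and Nmur2 are lowest in Q153R, and Hcrtr2 is between 64.1 and 66.1 CPM in each.

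The labels were also compared within single expression clusters, where UMIs are fewer and counting error alone spreads ratios more widely. Whether the labels differed more there than in the sums was not tested. With at least 20 UMIs over the pair of labels required and a fold of 3, 45 combinations of receptor and cluster could be compared for KD and 44 for Q153R. In KD 1 was higher and 2 were lower than in Ctrl, where 0.541% and 0.929% of all gene and cluster combinations were. In Q153R 3 were higher and 5 lower, where 0.469% and 1.26% were. Npsr1 supplied all 4 of those that were higher and 3 of the 7 that were lower, so it did not run one way across clusters.

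In the Ebf2 and Bnc2 cluster Npsr1 was at 74.6 CPM (68 UMIs in 20 of 121 nuclei) in KD and 101 CPM (94 UMIs in 23 of 140 nuclei) in Q153R, against 16.2 CPM (14 UMIs in 7 of 116 nuclei) in Ctrl. The ratios to Ctrl were 4.60 (2.56 to 8.86) and 6.22 (3.53 to 11.8). With nuclei chosen by at least 3 UMIs over Ebf2, Bnc2 and 4930438E09Rik in place of the cluster, Npsr1 measured 87.6 CPM in KD and 152 CPM in Q153R, against 25.7 CPM in Ctrl. Its UMIs lay in 10 of 60 nuclei in KD and 13 of 58 in Q153R, against 6 of 60 in Ctrl. Of those 178 nuclei 131 were in the cluster, so the choices overlap. For all sets chosen by leading genes here, 32.8% to 75.2% of nuclei lay in the named cluster.

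In the Pmch and Adamts19 cluster Npsr1 measured 12.9 CPM in KD and 89.2 CPM (68 UMIs in 21 of 128 nuclei) in Q153R, against 18.2 CPM (12 UMIs in 6 of 99 nuclei) in Ctrl, a Q153R to Ctrl ratio of 4.91 (2.63 to 9.96). In the Col15a1 cluster it measured 27.9 CPM in KD and 59.3 CPM in Q153R, against 9.44 CPM in Ctrl. Chosen by Pmch, 9530026P05Rik and Adamts19 UMIs, nuclei had 24.3 CPM in KD and 192 CPM in Q153R, against 11.1 CPM in Ctrl. In the Col15a1 cluster the Q153R to Ctrl ratio of 6.29 (2.78 to 16.7) became 3.44 without the nucleus with the most UMIs and 2.38 (0.685 to 9.23) in Xist nuclei, and by marker UMIs KD was the highest label, with 15 UMIs in KD and 12 in Q153R, against 4 in Ctrl. In the Esr2 and Foxp2 cluster the high label was KD, at 138 CPM in KD and 52.6 CPM in Q153R, against 60.0 CPM in Ctrl.

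The direction was not the same in every cluster. The cluster led by Aox3 and Satb1 had 5 UMIs of Npsr1 in KD and 0 UMIs in Q153R, against 23 UMIs in 6 nuclei in Ctrl, but nuclei chosen by its leading genes had 12 UMIs in KD and 1 in Q153R, against 2 in Ctrl.

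Galr1 differed in the Sv2c cluster, the group with Crh among its leading genes. It was at 19.4 CPM (11 of 196 nuclei) in KD and 71.6 CPM (50 of 281 nuclei) in Q153R, against 25.4 CPM (22 of 268 nuclei) in Ctrl, with a Q153R to KD ratio of 3.69 (2.21 to 6.47). Chosen by Sv2c, 5330439M10Rik and Hs3st2 UMIs, nuclei had 19.2 CPM in KD and 57.2 CPM in Q153R, against 20.8 CPM in Ctrl. Between Q153R and KD 2 combinations were 3 times higher and 1 lower, where 0.690% and 0.977% of all combinations were. In the Sst cluster, where Galr1 had its highest level, the levels were 65.6 CPM in KD and 57.1 CPM in Q153R, against 49.5 CPM in Ctrl, with overlapping intervals. Hcrtr2 in the Sv2c cluster was at 122 CPM (102 to 146) in KD and 150 CPM (127 to 175) in Q153R, against 199 CPM (174 to 226) in Ctrl.

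Nmur2 in the Sim2 and Crhr2 cluster measured 22.2 CPM in KD and 6.53 CPM (4 UMIs in 4 of 108 nuclei) in Q153R, against 24.3 CPM (26 UMIs in 18 of 164 nuclei) in Ctrl. The Q153R to Ctrl ratio was 0.269 (0.0682 to 0.776), and 0.529 (0.0989 to 1.85) in Xist nuclei. Chosen by Sim2, Crhr2 and Fras1 UMIs, nuclei had 18.3 CPM in KD and 7.57 CPM in Q153R, against 15.9 CPM in Ctrl. In the Ebf2 and Bnc2 cluster it was 0.327 (0.106 to 0.870), from 6 UMIs in Q153R, against 17 in Ctrl. Also past the fold was Qrfpr in the GABAergic cluster, with 1 UMI in 67 nuclei in Q153R, against 37 UMIs in 323 nuclei in Ctrl. Scaled to library size, its ratio was 0.159. Hcrtr2 in the Aox3 cluster also passed the fold, at 25.6 CPM in KD, against 76.7 CPM in Ctrl. That ratio of 0.333 was 1.55 in Xist nuclei.

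**Figure D4:**
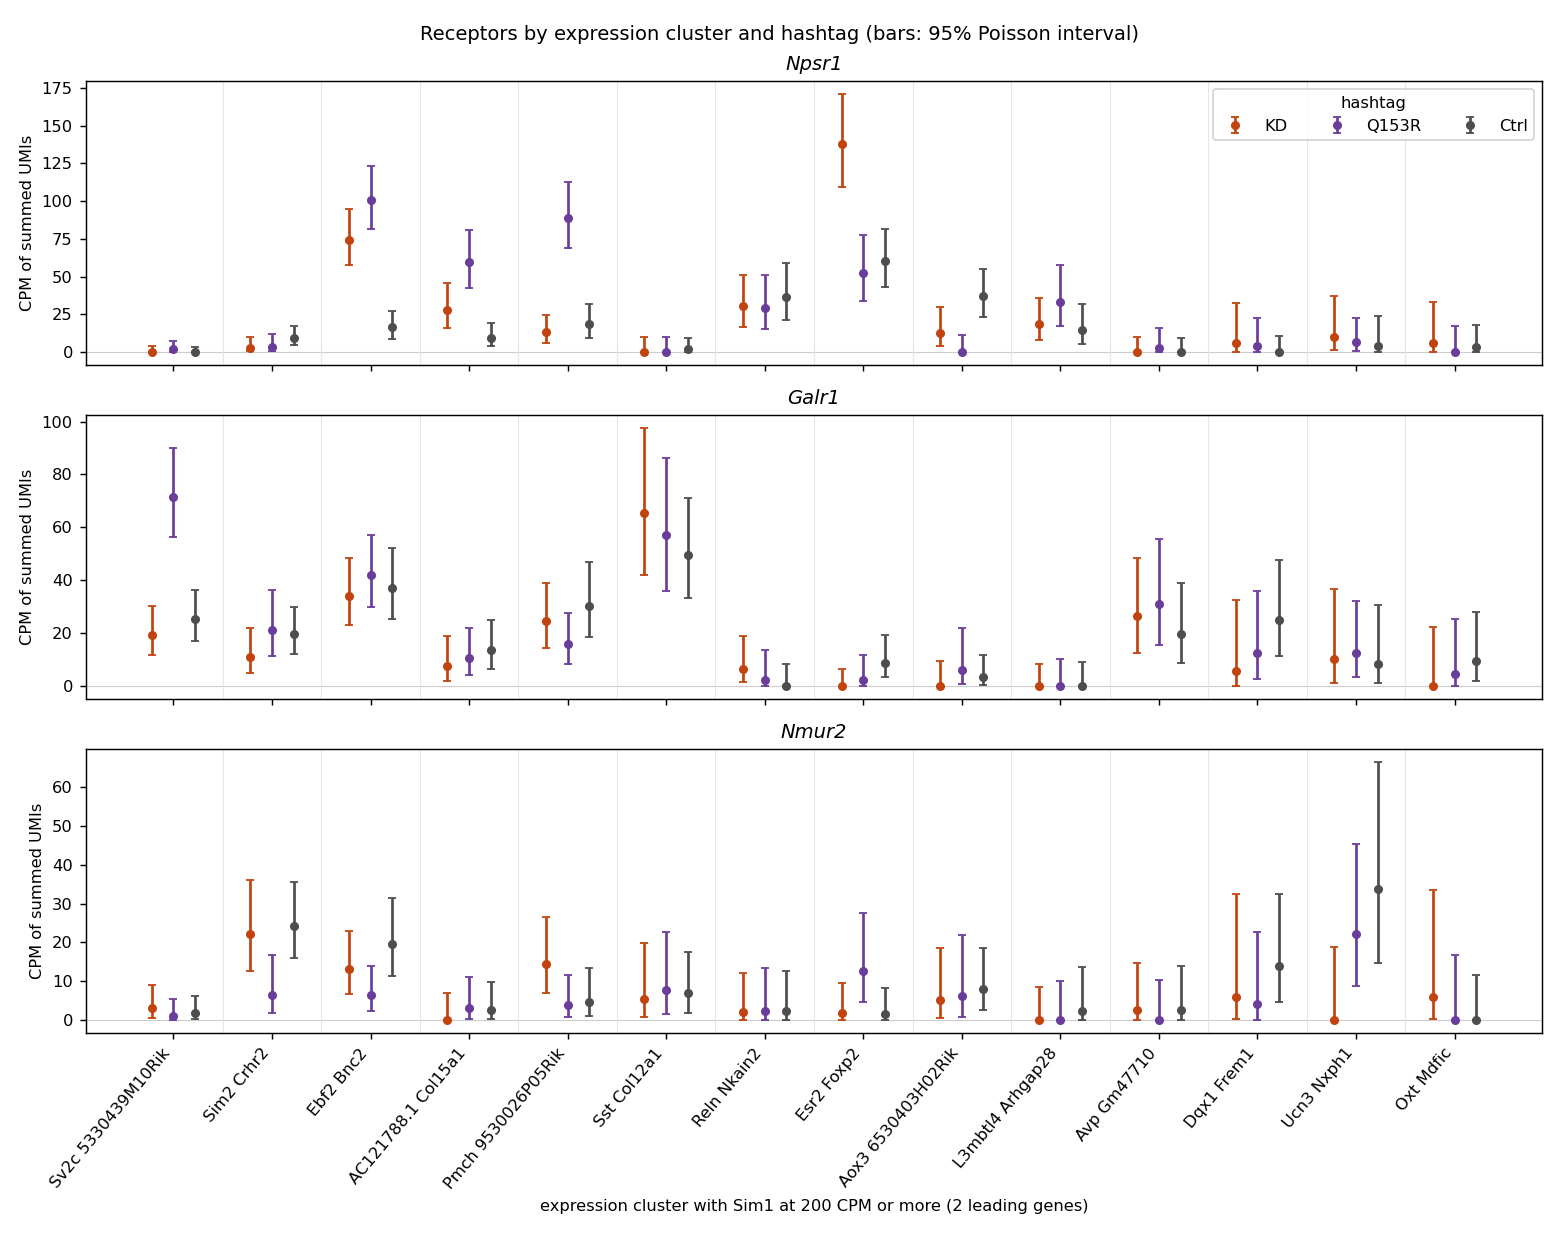
Npsr1, Galr1 and Nmur2 in the expression clusters with Sim1 at 200 CPM or more, by hashtag, in CPM of summed UMIs with 95% Poisson intervals. Npsr1 is higher in Q153R in the Ebf2 cluster (101 against 16.2 CPM in Ctrl), and Galr1 in Q153R reaches 71.6 CPM in the Sv2c cluster.

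The receptors were also counted pairwise in single nuclei. Of 45 pairs, 9 occurred together more often and 4 less often than library size would give, by the interval of a Mantel-Haenszel odds ratio over 5 strata of library size. Within strata of library size and expression cluster, 6 pairs had an interval above 1. The share among pairs of other genes was not computed, so these counts are not read as particular to the receptors. The neighbouring genes Npy1r and Npy5r shared 32 nuclei, 9.67% of those with Npy1r and 20.8% of those with Npy5r, with an odds ratio of 3.21 (2.13 to 4.83). Within clusters their odds ratio was 2.18 (1.44 to 3.31). Npy5r and Brs3 shared 8 nuclei, 15.7% of those with Brs3, with an odds ratio of 4.74 (2.17 to 10.3), or 4.40 within clusters.

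Npy1r and Npy2r met in 5 nuclei, 1.51% and 3.18% of those with either gene, an odds ratio of 0.364 (0.147 to 0.899), or 0.470 (0.188 to 1.17) within clusters. Npy2r was also rarely found with Galr1, in 4 nuclei at an odds ratio of 0.268 (0.0976 to 0.735), or 0.417 (0.151 to 1.15) within clusters, and more often with Hcrtr2, in 45 nuclei at 1.84 (1.28 to 2.63). Npy1r met Qrfpr in 12 nuclei at 0.541 (0.297 to 0.983), or 0.513 (0.271 to 0.972) within clusters, an interval still below 1. Npsr1 met Galr1 in 15 nuclei at 0.581 (0.341 to 0.990), or 0.631 (0.363 to 1.10) within clusters. Npy1r shared 38 nuclei with Npsr1 at 1.93 (1.34 to 2.78) and 39 with Galr1 at 1.55 (1.09 to 2.20). Qrfpr met Npy2r in 21 nuclei at 2.38 (1.47 to 3.88) and Nmur2 in 18 nuclei at 1.88 (1.12 to 3.14). Within clusters the interval of Qrfpr with Npy2r (1.68, 0.964 to 2.94) and that of Qrfpr with Nmur2 (0.985, 0.545 to 1.78) included 1. No nucleus held both Glp1r and any of Npy2r, Npy5r or Brs3. Glp1r was in only 43 neurons, Brs3 in 51, Npy5r in 154 and Npy2r in 157, so few shared nuclei could be looked for. These counts of 0 have no interval and are not read as avoidance.

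**Figure D5:**
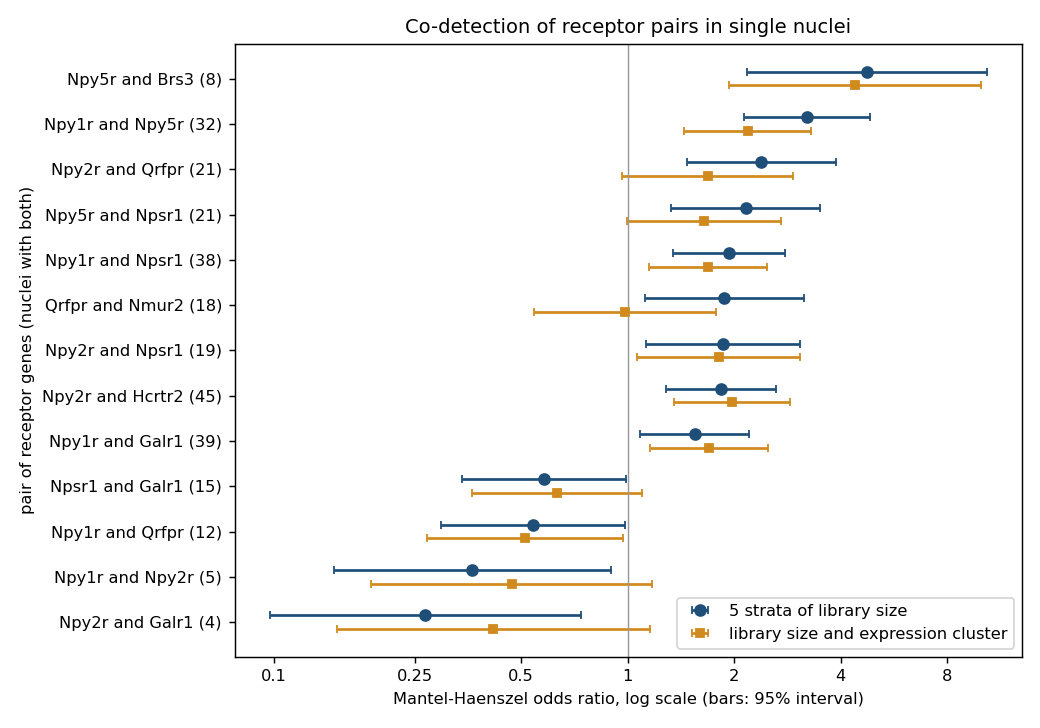
Mantel-Haenszel odds ratios (log scale, 95% intervals) for the 13 receptor pairs whose interval excludes 1 over strata of library size, beside the same within expression clusters, with the number of nuclei holding both genes. Npy5r with Brs3 (4.74) and Npy1r with Npy5r (3.21) are the highest and Npy2r with Galr1 (0.268) the lowest.

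Other genes of these pathways were taken from 3 lists. Of 29 other feeding peptide receptors 19 had at least 20 UMIs. In nuclei labelled KD 2 were higher than Ctrl and 2 lower, where 3.99% and 4.27% of all genes were. Their median log2 ratio was -0.01, against -0.04 over all genes. The neurokinin receptor gene Tacr3 was at 1.75 times (1.14 to 2.69), the CRH receptor gene Crhr2 at 1.75 times (1.12 to 2.75) and the leptin receptor gene Lepr at 0.540 (0.363 to 0.790). In Q153R the median was -0.07, against -0.02 over all genes. Relative to Ctrl 3 were higher and 3 lower, where 3.37% and 4.74% of all genes were. Those with an interval that excludes 1 were the cholecystokinin receptor gene Cckar at 1.52 times, the neuropeptide FF receptor gene Npffr2 at 1.90 times and the gastrin-releasing peptide receptor gene Grpr at 0.568.

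Of 19 ligand genes 9 were measured at that depth, and 0 of them passed the fold in KD, where 3.99% of all genes were higher and 4.27% lower. Under the label Q153R 1 was higher and 1 lower, where 3.37% and 4.74% of all genes were. In Q153R Nms, which encodes the Nmur2 ligand neuromedin S, was at 2.19 times Ctrl (1.17 to 4.26), from 29 UMIs in Q153R, against 17 in Ctrl. Gal, which encodes the Galr1 ligand galanin, was at 0.629 times (0.428 to 0.912), from 44 UMIs in Q153R, against 90 in Ctrl. Among the gates Gal was highest in the GABA gate, at 5.35 times other neurons (4.07 to 6.98). Nuclei of the GABAergic cluster made up 2.67% of the compared neurons in Q153R, against 10.3% in Ctrl. The part of this in the Gal ratio was not tested. Of 33 genes of G proteins and effectors 31 were measured, and 1 was higher in KD, where 3.99% of all genes were. It was the inward rectifier channel gene Kcnj5 at 2.09 times (1.03 to 4.38). In Q153R 2 were higher and 0 lower, where 3.37% and 4.74% of all genes were, and both had intervals that include 1. Beside the receptors described above, the calcitonin receptor gene Calcr was at 142 CPM in Q153R, against 78.1 CPM in KD, a ratio of 1.81 (1.64 to 2.01). Ctrl lay between at 105 CPM, and neither the Q153R to Ctrl ratio of 1.34 nor the KD to Ctrl ratio of 0.741 passed the fold.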

How the data were processed

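Single-nucleus RNA was measured in 1 droplet library of hashtagged nuclei. The deposited matrix holds UMI counts per gene and barcode with 3 hashtag rows. The counts were made with Cell Ranger 6.0.0 on mm10 per the submitters' processing notes, while the file header names version 7.0.0. Gene coordinates come from GENCODE vM21 (GRCm38), where all 10 IDs matched.

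Nuclei were kept where 500 genes or more were seen and mitochondrial UMIs made up less than 5%, and with exactly 1 hashtag at or above its minimum (Ctrl 105, KD 61, Q153R 37). Nuclei with more than 1 tag (1124) were left out as doublets, and doublets within a tag were not called in the main values. Single-tag nuclei held 565 to 29974 UMIs. Gates needed 3 UMIs (Sst 5 UMIs and 500 CPM, Oxt and Avp 10 UMIs and 2000 CPM). Levels are summed UMIs per 1000000 (CPM) with exact Poisson intervals, ratios have exact conditional binomial intervals, and shares have Clopper-Pearson intervals, all at 95%. Depth was equalized by thinning to 2555 UMIs. Clusters came from 2000 variable genes without the receptors, 30 components, 15 neighbours and the Leiden method. Results for 1 cluster are not reported here, so clusters named for a receptor are given without it, while the counts over clusters include it. Other genes were named where a list member passed 1.5 times with an interval that excludes 1, or as leading genes of clusters. Calcr was named under the same rule.

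The receptors and lists were chosen with earlier results of these data known. Alternatives changed gate minimums, tag rules, filters, scaling, strata, markers in place of clusters, and nuclei (doublets by neighbours, Xist nuclei, the nucleus with the most UMIs). Statistics were tested on simulated data. Python 3.11.15, NumPy 2.4.6, SciPy 1.17.1, pandas 2.3.3, scikit-learn 1.9.0, leidenalg 0.10.2 and python-igraph 0.11.9 were used.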

Additional observations from a re-analysis of the deposited data

How the results depend on the processing

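Of 756 recomputed values, 701 stayed within the counting interval of the main value or, for counts, within 1.5 times of it. Another 54 moved further. Direction was checked only for ratios past their fold, outside clusters also with an interval that excludes 1, and 1 of these turned. Other ratios could cross 1 without being counted as turned. No paired analysis was possible because each hashtag is 1 pool without replicates. The reversed value was Hcrtr2 in the cluster led by Aox3, whose KD to Ctrl ratio was 1.55 in Xist nuclei. The count of receptors past 1.5 times between KD and Ctrl, 1 in the text, was 2 without nuclei over 2 times the median library size, without neighbour doublets, in Xist nuclei and within clusters, and 0 with at least 50 UMIs required. The count between Q153R and KD, 4 in the text, was 2 with lower tag minimums, in Xist nuclei and with at least 50 UMIs. That between Q153R and Ctrl, 3 in the text, was between 2 and 4. The share of neurons with any receptor was 28.2% thinned to the 10th percentile of depth, 35.8% thinned to the 25th and 42.7% without thinning. Likeness pairs numbered 27, or 14 on log2(CPM + 1). Npsr1 without neighbour doublets had a KD to Ctrl ratio of 1.63 and a Q153R to KD ratio of 0.910. Hcrtr2 in the Sst gate was at 1.01 times other neurons with doubled gate minimums, and Npy2r in the Qrfpr/Sim2 gate had 0 UMIs. The causes were not tested. Depth limits Brs3 and Glp1r most, with 61 and 45 UMIs in neurons.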

Other observations

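Nuclei positive for a receptor were also described by other genes, with no test. Neurons with a Qrfpr UMI had the R-spondin receptor gene Lgr5 at 70.05 CPM, against 10.6 CPM in neurons without one, and the extracellular matrix gene Fras1 at 371 CPM, against 71.0 CPM. Neurons with Npsr1 had the transcription factor gene Ebf2 at 123 CPM, against 40.05 CPM, and those with Brs3 had it at 171 CPM, against 44.5 CPM. Neurons with Galr1 had Sst at 320 CPM, against 146 CPM. Neurons with Nmur2 had Gm12239, which overlaps Nmur2 on the opposite strand, at 228 CPM, against 57.9 CPM, and without strand reads of the pair cannot be told apart.

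Across 27 points, each a gate or the ungated neurons in 1 pool, the genes whose levels ran most like a receptor were Lgr5 for Qrfpr (r = 0.906), Chsy3 for Npy5r (0.857), Tmem200a for Hcrtr2 (0.856), Hmcn2 for Brs3 (0.833), Cftr for Npy1r (0.773), C030034I22Rik for Nmur2 (0.761), Cdh4 for Galr1 (0.760), Ddhd1 for Npsr1 (0.756) and 1810041L15Rik for Npy2r (0.742). The points share a library and differ in depth, and no p-value is given. They include the Qrfpr/Sim2 gate, which Qrfpr UMIs help to define, so the value for Qrfpr rests in part on that choice.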
